A study of Mus musculus with 6 samples.

Results

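Genes that drive DNA replication and cell division were read out in RNA from mouse motor neurons of the cervical and thoracic spinal cord. The members are 38 genes, 17 of S phase and 21 of G2 and mitosis (G2/M), taken by symbol from a table of 56805 genes. Both regions came from embryos at e12.5 that the labels give as control in genotype and as untreated, with 3 biological replicates for cervical and 3 for thoracic motor neurons. Each stranded library started from between 10 and 20 ng of RNA, was cleared of ribosomal RNA and went through 15 PCR cycles. The strain, the way in which the motor neurons were isolated and the number of embryos behind a replicate are not stated in the labels. The series addresses how Hox5 genes shape motor neuron types.

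A cell that is about to copy its DNA loads the Mcm helicase onto origins, makes nucleotides and opens the forks in S phase. It then accumulates cyclin B and Cdk1, condenses its chromosomes, attaches them to the spindle and destroys the cyclins through the anaphase-promoting complex. In the embryonic spinal cord these genes are known to be active in progenitors along the central canal, while motor neurons have left the cycle for good. Many S phase genes carry E2F sites in their promoters, and many G2/M genes carry the cell cycle genes homology region (CHR), which the MuvB complex binds.

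These sequence classes were visible in the promoters of the members. RefSeq windows of the GRCm38.p6 build, from 250 bases before to 50 after each transcription start, were found by symbol for 32 of the 38 members, and Mcm4, Gins2, Ccne2, Ccna2, Aurkb and Tpx2 had no entry. The words TTTCCCGC, TTTCGCGC, TTTGCCGC and TTTGGCGC were searched on both strands as E2F words, and TTTGAA and TTCGAA as CHR words. A gene can have more than 1 window. The 16 windows of S phase members came from 14 genes, the 18 of G2/M members from 18 and all 32851 windows from 27025. An E2F word was in 7 of 16 windows of S phase members (43.8%), in 1 of 18 windows of G2/M members (5.56%) and in 2.26% of all 32851 windows. A CHR word was in 3 of 16 windows of S phase members (18.8%), in 14 of 18 windows of G2/M members (77.8%) and in 19.2% of all windows. CCAAT, a word bound by the factor NF-Y, was in 75.0% of windows of S phase members, 88.9% of windows of G2/M members and 37.4% of all. The word TTCGAA reads the same on both strands and was counted once, and TTTCGCGC can overlap with TTTGGCGC on the other strand, as it does in Mcm5 and Mcm6. A match is a description of the letters, not of binding.

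Below are 5 promoters, shown because Mki67 and Cenpf were called in some fits, Cdk1 holds words of both classes, and Mcm5 and Mcm6 show the E2F class. Each stretch covers 200 bases before to 30 after the start, on the strand of the gene, with E2F and CHR words in capitals. Mki67 lies at chr7:135716350-135716579 (minus strand), Cenpf at chr1:189688057-189688286 (minus), Cdk1 at chr10:69352883-69353112 (minus), Mcm5 at chr8:75109309-75109538 (plus) and Mcm6 at chr1:128359676-128359905 (minus), all in GRCm38.p6.
Mki67: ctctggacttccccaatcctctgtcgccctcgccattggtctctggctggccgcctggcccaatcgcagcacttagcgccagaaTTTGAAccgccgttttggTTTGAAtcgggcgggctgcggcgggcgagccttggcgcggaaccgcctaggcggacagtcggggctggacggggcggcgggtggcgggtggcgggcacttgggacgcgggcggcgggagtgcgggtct
Cenpf: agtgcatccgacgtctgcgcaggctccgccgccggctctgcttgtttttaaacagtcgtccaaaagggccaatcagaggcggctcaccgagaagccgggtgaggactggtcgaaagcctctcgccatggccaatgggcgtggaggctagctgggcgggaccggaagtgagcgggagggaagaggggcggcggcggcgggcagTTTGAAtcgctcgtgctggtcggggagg
Cdk1: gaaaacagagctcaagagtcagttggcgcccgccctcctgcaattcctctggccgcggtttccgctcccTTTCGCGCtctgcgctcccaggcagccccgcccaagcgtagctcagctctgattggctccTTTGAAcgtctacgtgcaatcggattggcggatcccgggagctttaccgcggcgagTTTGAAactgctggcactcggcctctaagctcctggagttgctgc
Mcm5: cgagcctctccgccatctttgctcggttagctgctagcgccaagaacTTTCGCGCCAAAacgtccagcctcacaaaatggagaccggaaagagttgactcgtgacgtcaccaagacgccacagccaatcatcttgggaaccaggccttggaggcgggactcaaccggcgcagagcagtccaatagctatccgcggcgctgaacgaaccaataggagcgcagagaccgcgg
Mcm6: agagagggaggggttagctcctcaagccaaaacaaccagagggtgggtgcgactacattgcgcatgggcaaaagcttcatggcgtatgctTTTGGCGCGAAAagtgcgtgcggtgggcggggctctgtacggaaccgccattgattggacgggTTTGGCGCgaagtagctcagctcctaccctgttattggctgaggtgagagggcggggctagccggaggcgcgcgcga
In Mki67 the TTTGAA words start 116 and 98 bases before the start site, and in Cenpf the word begins at base 3 of the transcript. In Cdk1 the E2F word starts 131 bases before the start site and the CHR words 71 and 15 bases before it.

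**Figure D1:**
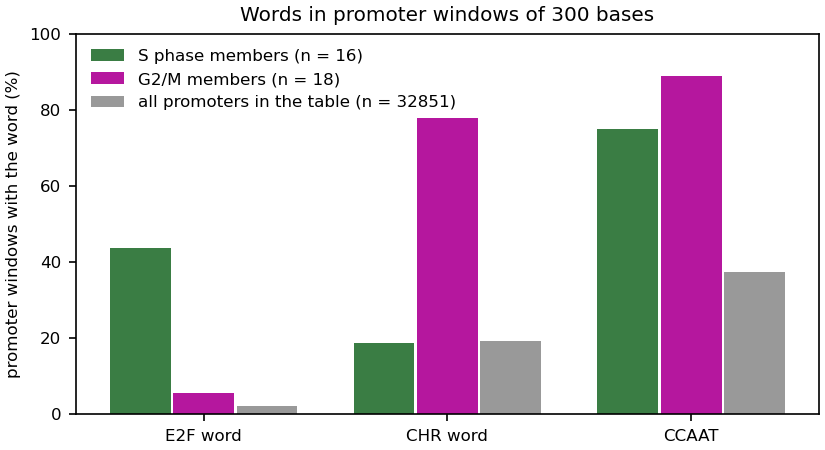
Share of promoter windows (%, y axis) that hold an E2F word, a CHR word or CCAAT, for 16 windows of S phase members (14 genes), 18 of G2/M members (18 genes) and all 32851 windows. The bars for E2F words stand at 43.8% and 5.56% in the S phase and G2/M members, and those for CHR words at 18.8% and 77.8%.

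The deepest library was thoracic replicate 1, with 53186131 counts, and the other 5 held between 32103071 and 33790634. Levels are given as CPM (counts scaled to a common library size, with TMM factors) between libraries and as TPM, which also divides by exonic length, between genes. A log2 value in parentheses is the log2 fold change in CPM, cervical minus thoracic, with its standard error (SE). Every one of the 38 members passed the low-count filter. The lowest count of a member in any library was 81, for Gins2. Markers of the named cell type were detected, with 7 motor neuron genes (Mnx1, Isl1, Isl2, Lhx3, Chat, Slc18a3 and Slc5a7) at summed levels of 255 to 504 CPM in cervical and 327 to 493 CPM in thoracic libraries, none of them at 0. Among the 17 neural progenitor markers are Sox2, Nes, Vim and Pax6. Their list summed to 1525 to 1806 CPM in cervical and 1756 to 2145 CPM in thoracic libraries. Sums of 8 postmitotic neuron markers, such as Tubb3, were 7611 to 8053 CPM in cervical and 7454 to 8359 CPM in thoracic libraries. These lists differ in the number and length of their genes, so their sums do not give shares of cells. In these bulk samples, fewer cells of a type and less RNA per cell cannot be told apart.

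Levels per exonic length spanned 2.95 to 69.4 TPM among S phase members and 4.67 to 44.9 TPM among G2/M members, as means of 6 libraries. Mcm7, a subunit of the replicative helicase, was the most abundant S phase member at 67.8 ± 5.21 TPM in cervical and 71.1 ± 1.56 TPM in thoracic libraries (SD, n = 3 each). Mcm4, of the same hexamer, followed at 42.3 ± 5.002 and 44.7 ± 2.84 TPM in cervical and thoracic libraries. Gins2, Cdc6 and Cdc45, which load or activate that helicase, stood lowest, at means of 2.95, 4.29 and 5.13 TPM. The 6 Mcm subunits, which form a ring of equal parts, thus spread from 18.1 TPM for Mcm3 to 69.4 TPM for Mcm7. Among G2/M members, Top2a, the topoisomerase that untangles chromosomes, stood highest at 40.8 ± 3.59 TPM in cervical and 48.96 ± 4.59 TPM in thoracic libraries. Mki67, whose protein coats mitotic chromosomes, came next at 33.0 ± 1.25 and 42.5 ± 2.99 TPM in cervical and thoracic libraries. Ttk and Birc5 stood lowest, at means of 4.67 and 5.43 TPM.

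**Figure D2:**
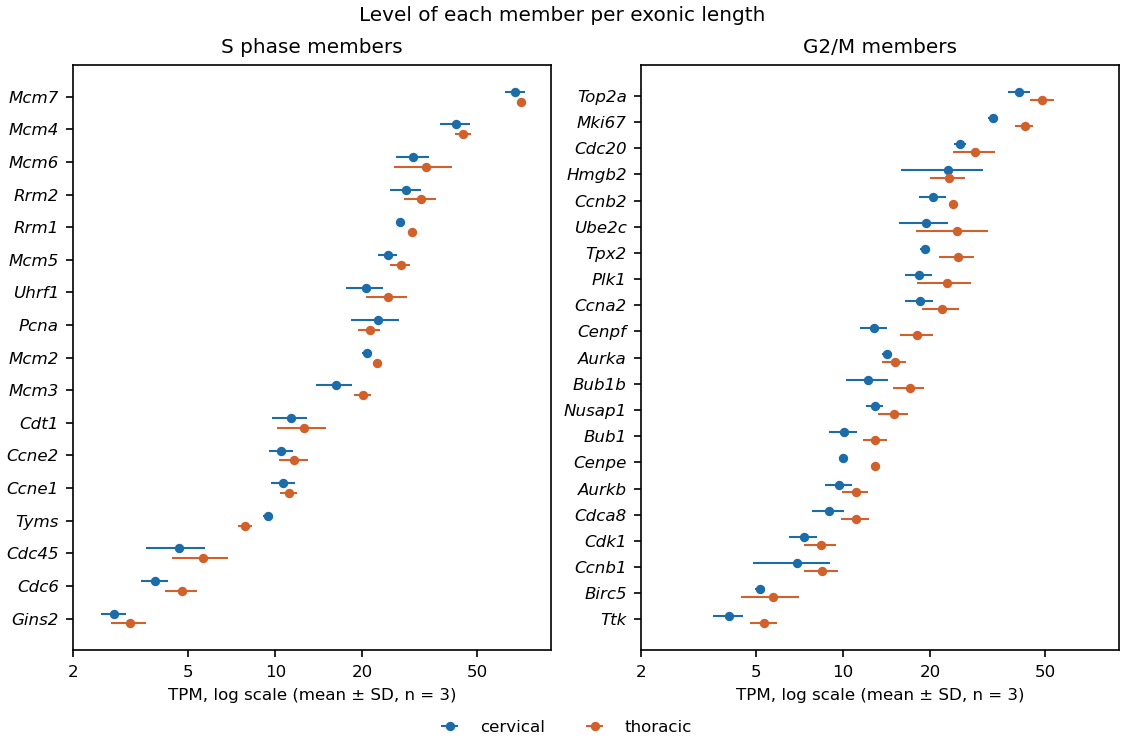
Level of each member per exonic length (TPM, log x axis; mean ± SD, n = 3) in cervical and thoracic libraries, ordered by mean. Mcm7 tops the S phase panel at 69.4 TPM and Top2a the G2/M panel at 44.9 TPM.

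Some levels carry a counting limit. The strand setting of the counting and its handling of reads that map to several places are not stated in the labels. Of the 38 members, 12 share exonic bases with another annotated gene, 11 of them with a gene on the opposite strand. Gins2 shares 2758 of its 4097 exonic bases with Gse1, which averaged 6758 counts against 107 for Gins2. Ccne2 shares 609 bases with Ints8, Ccna2 510 with Exosc9, Mcm7 321 with Ap4m1 and 64 with Cops6, and Cdc45 209 with Ufd1. Pcna shares 499 with AV099323, Ube2c 592 with Tnnc2, Cdca8 232 with 9930104L06Rik, Nusap1 172 with Oip5, Plk1 156 with Gm44985 and Cdc20 53 with Elovl1. On the same strand, Top2a shares 122 bases with Gm23451 and Mcm7 84 and 88 with Mir25 and Mir93, all of which have a count of 0. A processed copy named Ccnb2-ps averaged 340.3 counts beside 303.5 for Ccnb2, and Pcna-ps2 averaged 74.3 beside 467.7 for Pcna. The values of these members are uncertain to that extent.

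The quasi-likelihood test of edgeR called no S phase or G2/M member, with p-values adjusted by Benjamini-Hochberg over all 21972 genes tested. Of all tested genes, 119 were called (0.542%), 42 of which had a positive (0.191%) and 77 a negative log2 fold change (0.35%). The lowest adjusted p of a member was 0.130 for Mki67 among G2/M genes and 0.425 for Tyms among S phase genes. At an unadjusted p below 0.05, 7 G2/M members had negative log2 fold changes (cervical minus thoracic) and 0 positive ones, where 5.19% of all tested genes met the same rule on the negative side. Among S phase members the numbers were 0 negative and 1 positive, where 3.27% of all tested genes met the rule on the positive side. Limma-voom called 0 members, where it called 0.487% of all genes (0.2% positive and 0.287% negative). It had the same counts at an unadjusted p below 0.05 for both groups, beside 5.4% of all genes on the negative and 3.49% on the positive side. DESeq2 called 2 G2/M members higher in thoracic libraries, Mki67 and Cenpf, among 283 genes called in that direction (1.29%), and 0 S phase members. DESeq2 called 1.86% of all genes, 0.573% higher in cervical libraries. At an unadjusted p below 0.05 it had 7 negative G2/M members and 1 negative and 1 positive S phase member, beside 4.95% of all genes on the negative and 2.96% on the positive side.

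Same-numbered libraries deviated together from their region means, so the replicate number was also fitted as a block. With the block, Mki67 and Cenpf were called lower in cervical libraries, 2 of 21 G2/M members, where 1.39% of all tested genes were called in that direction, 0.573% in the other and 1.97% in all. At an unadjusted p below 0.05, 8 G2/M members were negative, beside 6.67% of all genes. No S phase member was called with the block, and 1 had an unadjusted p below 0.05 on the positive side, beside 3.99% of all genes, and 2 on the negative side.

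Mki67, on chromosome 7 from 135291513 to 135318090 (mm39), stood at 79.6, 87.7 and 81.7 CPM in cervical replicates 1, 2 and 3 and at 99.5, 113.9 and 96.4 CPM in the thoracic ones. Every cervical library lay below every thoracic one. Its log2 fold change was -0.32 (SE 0.07), with an edgeR adjusted p of 0.130, 0.0221 with the block and 0.152 to 0.413 in fits that left out a library. Cenpf, a large protein of the outer kinetochore on chromosome 1 from 189372803 to 189420283 (mm39), had 47.2, 56.0 and 45.3 CPM in cervical and 61.3, 78.9 and 62.1 CPM in thoracic libraries. The regions did not overlap here either, and thoracic replicate 2 stood well above the rest. The log2 fold change of Cenpf was -0.44 (SE 0.11), the most negative of all members, with an edgeR adjusted p of 0.160, 0.00446 with the block and 0.146 to 0.506 in fits that left out a library.

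Other members act at the kinetochore and in the spindle checkpoint, which holds back anaphase until all chromosomes are attached, and none of them was called. Bub1b, a checkpoint component, had 14.7, 13.6 and 10.8 CPM in cervical libraries and 15.7, 20.3 and 16.8 CPM in thoracic ones (log2 -0.43, SE 0.14, edgeR adjusted p = 0.369). Cenpe, the kinesin that moves chromosomes to the spindle equator, had 20.7, 22.5 and 21.5 CPM in cervical and 26.6, 28.5 and 25.5 CPM in thoracic libraries (log2 -0.31, SE 0.09, edgeR adjusted p = 0.243). For both genes the regions were separate, and the gap was wider for Cenpe. Ttk, the kinase that starts the checkpoint, had 4.77, 5.60 and 4.41 CPM in cervical and 5.86, 7.24 and 5.90 CPM in thoracic libraries, again without overlap (log2 -0.36, SE 0.17, edgeR adjusted p = 0.616). Bub1, a kinase of the same pathway, had a cervical value of 12.53 CPM in replicate 2 that lay just above the 12.44 CPM of thoracic replicate 3 (log2 -0.31, edgeR adjusted p = 0.556).

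Among spindle and chromosome genes, Tpx2, which activates Aurora A on the spindle, had 22.6, 22.9 and 21.6 CPM in cervical and 26.9, 33.2 and 24.4 CPM in thoracic libraries (log2 -0.33, SE 0.12, edgeR adjusted p = 0.396). Top2a had 97.1, 94.2 and 83.8 CPM in cervical and 101.7, 120.5 and 97.7 CPM in thoracic libraries (log2 -0.22, SE 0.09, edgeR adjusted p = 0.506). Neither overlapped between the regions, although cervical replicate 1 and thoracic replicate 3 were nearly equal for Top2a. Aurka, the Aurora A kinase itself, had a log2 fold change of -0.04 (SE 0.13) and overlapped. The chromosomal passenger genes Aurkb, Birc5 and Cdca8 had log2 fold changes of -0.14, -0.11 and -0.25, all with overlap. Nusap1, which bundles spindle microtubules, and the mitotic kinase gene Plk1 overlapped as well, at -0.17 and -0.27.

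Cdk1, the kinase that drives entry into mitosis, had 8.68, 10.2 and 8.17 CPM in cervical and 9.72, 11.6 and 8.64 CPM in thoracic libraries (log2 -0.15, SE 0.15, edgeR adjusted p = 0.897). Its cyclins Ccnb1, Ccnb2 and Ccna2 had log2 fold changes of -0.24, -0.18 and -0.21, and Ccnb2 alone of these did not overlap. Cdc20 and Ube2c, an activator and an enzyme of the anaphase-promoting complex, had -0.13 and -0.31, both with overlap. Ube2c had the widest range of all members, with 15.0, 12.03 and 10.7 CPM in cervical and 13.4, 21.1 and 12.47 CPM in thoracic libraries, so that its value rests on thoracic replicate 2. Hmgb2, a chromatin protein of cycling cells, was the single G2/M member with a positive log2 fold change (0.04, SE 0.21), with 12.8, 23.8 and 15.6 CPM in cervical and 17.9, 18.9 and 13.8 CPM in thoracic libraries. Hmgb2 did not share the order of libraries seen in the other members, and its sign turned without cervical replicate 2 and without thoracic replicate 3.

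S phase members lay closer to equality. The helicase genes Mcm2, Mcm4, Mcm5, Mcm6 and Mcm7 had log2 fold changes between -0.10 and -0.02, each with overlap. Mcm7 had 75.9, 80.0 and 68.97 CPM in cervical and 78.3, 76.7 and 72.8 CPM in thoracic libraries (log2 -0.02, SE 0.07, edgeR adjusted p = 0.982). Mcm3 was the exception in the ring, with 16.4, 16.2 and 12.8 CPM in cervical and 17.4, 20.1 and 17.2 CPM in thoracic libraries (log2 -0.27, SE 0.12, edgeR adjusted p = 0.612). Its regions did not overlap, by a margin of under 1 CPM. Mcm6 had a library order of its own, with its highest value in thoracic replicate 3 (45.4 CPM) and its lowest in thoracic replicate 2 (30.6 CPM).

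Genes that license and fire origins and those of cyclin E, which triggers S phase, overlapped throughout. Cdc6 and Cdt1, which load the helicase, had log2 fold changes of -0.26 and -0.11, and Cdc45 and Gins2, which switch it on, had -0.24 and -0.13. Ccne1 and Ccne2 had -0.01 and -0.10. Cdc45 had 4.96, 3.96 and 3.22 CPM in cervical and 4.63, 5.98 and 3.70 CPM in thoracic libraries, a spread within each region as wide as any gap between them. Pcna, the clamp that holds the polymerase on DNA, had 10.8, 16.3 and 13.6 CPM in cervical and 12.9, 11.3 and 12.6 CPM in thoracic libraries (log2 0.15, SE 0.15, edgeR adjusted p = 0.897). The cervical range enclosed the thoracic one.

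Tyms, the thymidylate synthase of nucleotide synthesis, had 14.7, 14.1 and 14.3 CPM in cervical and 11.7, 12.45 and 10.6 CPM in thoracic libraries (log2 0.31, SE 0.11, edgeR adjusted p = 0.425, blocked 0.323). It was the single member whose cervical libraries all lay above the thoracic ones. Rrm1, the large subunit of ribonucleotide reductase, had 74.6, 73.7 and 74.98 CPM in cervical and 76.8, 80.6 and 79.2 CPM in thoracic libraries (log2 -0.08, SE 0.06, edgeR adjusted p = 0.809). This separation without overlap was small, and Rrm1 was the steadiest member, with its highest library 9.46% above its lowest. Rrm2, the small subunit, overlapped at -0.12. Uhrf1, which keeps DNA methylation through replication, had 20.6, 25.8 and 19.3 CPM in cervical and 24.4, 30.3 and 21.3 CPM in thoracic libraries (log2 -0.21, SE 0.15, edgeR adjusted p = 0.809).

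**Figure D3:**
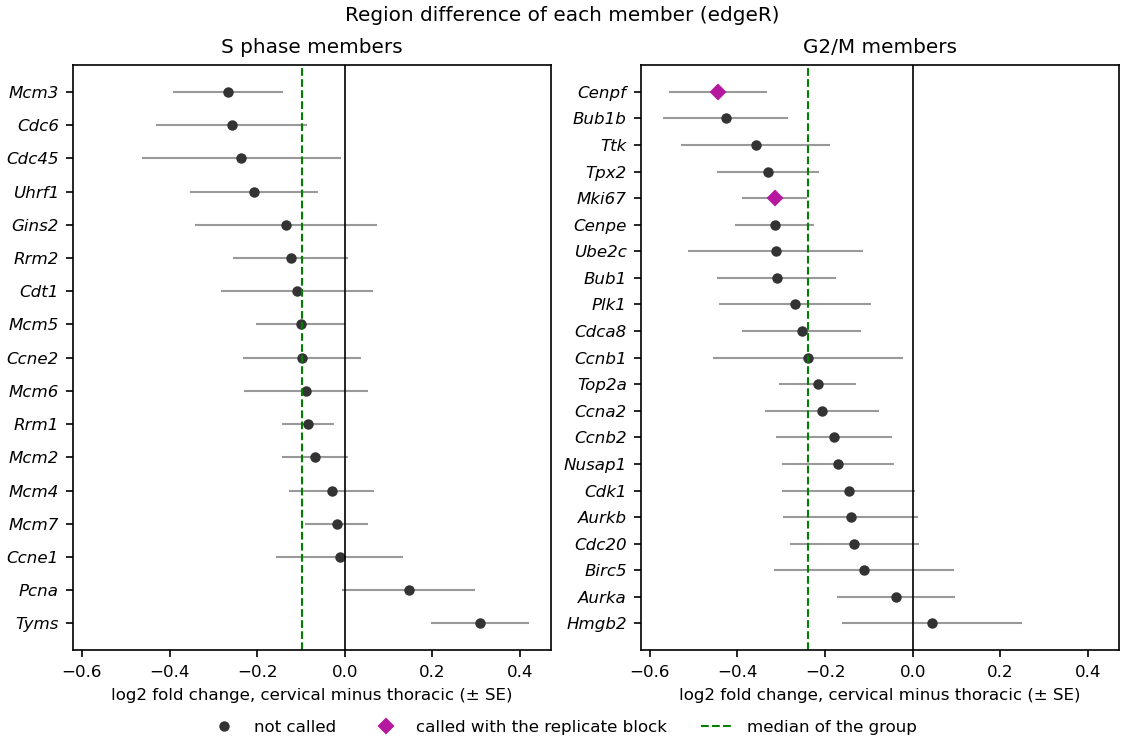
Log2 fold change of each member, cervical minus thoracic, with its SE (x axis), from edgeR; the dashed line is the median of the group and diamonds mark Mki67 and Cenpf, called with the replicate block. The G2/M panel centres at -0.24 with 20 of 21 points below 0, and the S phase panel at -0.10.

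Across the G2/M group the log2 fold changes ran from -0.44 to 0.04 with a median of -0.24, and 20 of 21 were below 0. Across the S phase group they ran from -0.27 to 0.31 with a median of -0.10, and 15 of 17 were below 0. The median over all tested genes was 0.0083, with 47.9% below 0. Libraries did not overlap with thoracic higher for 8 of 21 G2/M and 2 of 17 S phase members, and for 7.5% of all tested genes. With cervical higher, this held for 0 G2/M members, 1 S phase member and 6.25% of all tested genes. In 15 G2/M and 7 S phase members the thoracic value was the higher one in all 3 same-number pairs, as in 16.4% of all tested genes. Members share libraries and cells, so these counts describe the groups and are not independent observations. Whether the S phase and G2/M groups differ from each other was not tested.

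The members varied together from library to library. Thoracic replicate 2 held the highest value of 20 of 21 G2/M and 12 of 17 S phase members, against 17.3% of all tested genes. Cervical replicate 3 held the lowest value of 10 G2/M and 11 S phase members, against 14.9% of all tested genes. Without thoracic replicate 2, the median log2 fold change was -0.12 for the G2/M group, with 18 of 21 below 0, and -0.024 for the S phase group, with 11 of 17 below 0. The G2/M members with a negative log2 fold change at an unadjusted p below 0.05 numbered 3 without thoracic replicate 2 and 4 without cervical replicate 3. In the other fits without 1 library they numbered 6 to 9. The matching shares of all tested genes were not computed for fits without 1 library, so these counts have no background beside them.

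**Figure D4:**
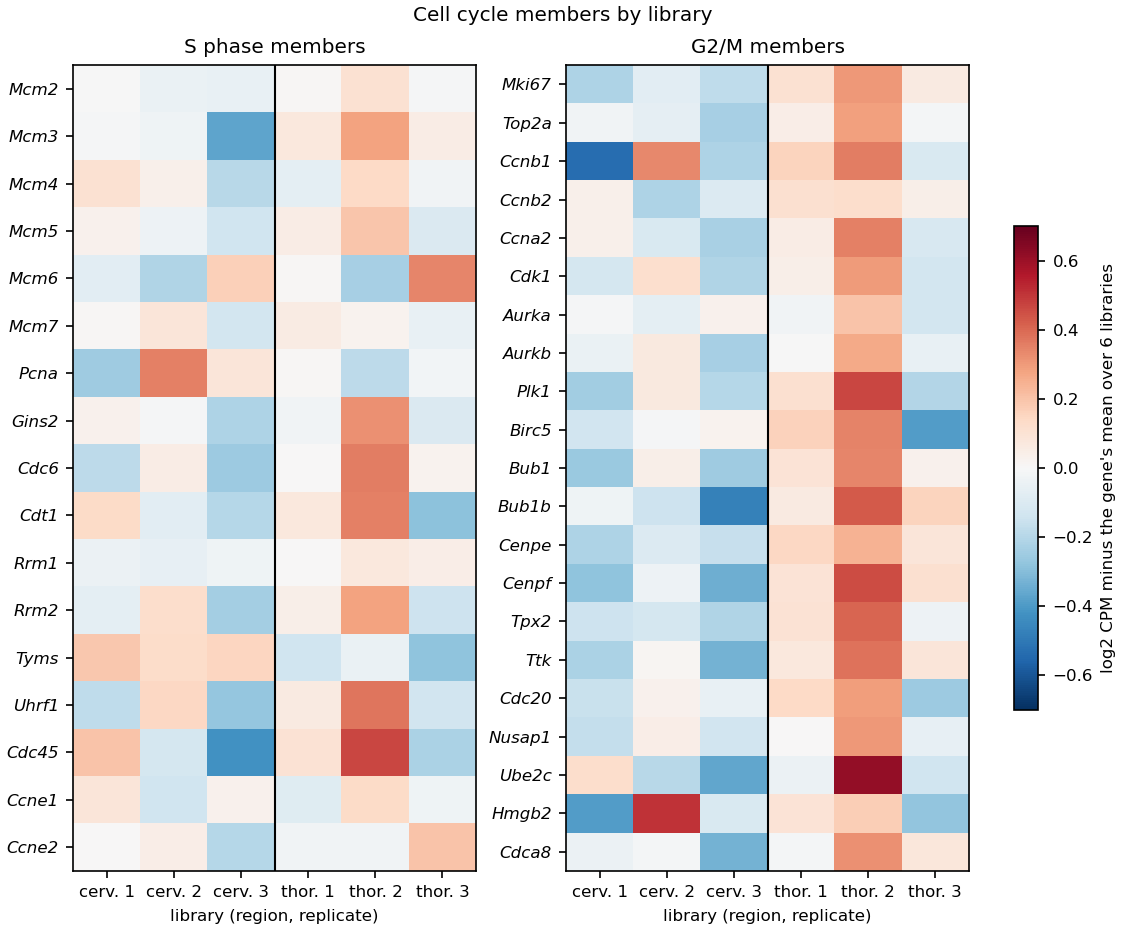
Log2 CPM of each member minus its own mean over the 6 libraries (colour), with cervical replicates 1 to 3 left and thoracic replicates 1 to 3 right of the line. Thoracic replicate 2 is the highest library for 20 of 21 G2/M members and for 12 of 17 S phase members.

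Summed over the 17 S phase members, levels were 410.0, 416.3 and 387.0 CPM in cervical and 416.7, 442.9 and 412.5 CPM in thoracic libraries, with overlap. Summed over the 21 G2/M members, they were 433.0, 468.7 and 409.6 CPM in cervical and 503.2, 602.3 and 475.8 CPM in thoracic libraries, without overlap. Top2a, Mki67 and Cenpf made up 52.0% of the G2/M sum. The means were 404 ± 15.4 and 424 ± 16.5 CPM for S phase, and 437 ± 29.7 and 527 ± 66.5 CPM for G2/M, in cervical and thoracic libraries (SD, n = 3 each). The log2 ratio of these means, cervical over thoracic, was -0.068 for S phase and -0.27 for G2/M, and -0.16 for G2/M without thoracic replicate 2. The ratio of the G2/M sum to the S phase sum was 1.06, 1.13 and 1.06 in cervical and 1.21, 1.36 and 1.15 in thoracic libraries, again separate. No p is given for these sums, because they are scores over chosen members.

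Marker lists of other cells differed in direction. The 17 progenitor markers summed to 1535, 1806 and 1525 CPM in cervical and 1756, 2145 and 1793 CPM in thoracic libraries, with overlap. Of these 17, 14 had log2 fold changes below 0, and Nkx6-1, a factor of ventral progenitors and of some motor neurons, was called lower in cervical libraries (-0.54, SE 0.09, edgeR adjusted p = 0.0261). That call was kept without cervical replicate 1 (adjusted p = 0.0195) and lost without each of the other 5 libraries (0.0515 to 0.130). With the replicate block, which called Mki67 and Cenpf, the progenitor markers Nes (adjusted p = 0.000903), Vim (0.00073) and Notch1 (0.0484) were called lower in cervical libraries as well, and DESeq2 called Nes and Vim beside Nkx6-1. The 3 progenitor markers with positive log2 fold changes were Pax6 (0.28, SE 0.15), Nkx6-2 (0.16) and Sox3 (0.05), and no fit of all libraries called them. Among the 14 below 0, Sox1, Fabp7 and Msi1 lay close to equality (-0.006, -0.007 and -0.03). None of the progenitor markers was at 0, and Olig2, the factor of motor neuron progenitors, had 3.72 to 5.95 CPM in cervical and 4.16 to 7.15 CPM in thoracic libraries. Per 100 CPM of progenitor markers, G2/M members had 28.2, 25.9 and 26.9 CPM in cervical and 28.7, 28.1 and 26.5 CPM in thoracic libraries, which overlapped. S phase members had 26.7, 23.0 and 25.4 CPM per 100 in cervical and 23.7, 20.7 and 23.0 CPM per 100 in thoracic libraries, also with overlap. After this division the log2 ratio was -0.039 for G2/M and turned to 0.16 for S phase. All 9 mesenchyme markers also had negative log2 fold changes, with sums of 22.2 to 220.2 CPM in cervical and 135.2 to 222.2 CPM in thoracic libraries and none at 0. Cervical replicate 3, with the lowest G2/M sum, held the highest mesenchyme sum of its region. The block called Col1a1 and Col3a1 lower in cervical libraries. Negative values were also found for all 6 endothelial markers, with sums of 4.93 to 11.7 CPM in cervical and 8.19 to 12.7 CPM in thoracic libraries. Of these 6, 3 had a mean below 1 CPM. Without cervical replicate 1, only 6 of 9 mesenchyme and 2 of 6 endothelial markers had negative log2 fold changes.

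Interneuron markers were mixed, with 5 of 11 log2 fold changes below 0. Gata3 (-0.85, edgeR adjusted p = 0.0249) and Sim1 (-2.25, edgeR adjusted p = 0.0192) were called lower in cervical libraries, and Pax2 (0.33, edgeR adjusted p = 0.0462) and Lhx1 (0.45, edgeR adjusted p = 0.0256) higher. In fits without 1 library the edgeR adjusted p ran from 0.015 to 0.119 for Gata3 and from 0.00222 to 0.0876 for Sim1. It ran from 0.0348 to 0.146 for Lhx1 and from 0.0761 to 0.154 for Pax2, whose call was lost in every such fit. The interneuron sums were 1393 to 1512 CPM in cervical and 1220 to 1281 CPM in thoracic libraries, without overlap. Positive log2 fold changes were found for all 6 sensory ganglion markers, with sums of 72.6 to 98.5 CPM in cervical and 56.2 to 75.8 CPM in thoracic libraries. They were also found for all 5 macrophage markers tested of 7, with list sums of 4.37 to 16.4 CPM in cervical and 4.91 to 10.1 CPM in thoracic libraries. All 3 erythroid markers tested of 9 were positive too, with list sums of 10.0 to 23.8 CPM in cervical and 7.42 to 10.8 CPM in thoracic libraries. A mean below 1 CPM was found for 4 of the 7 macrophage and 6 of the 9 erythroid markers. The main edgeR fit called no sensory ganglion, macrophage or erythroid marker. Neural crest and Schwann markers summed to 240.05 to 260.07 CPM in cervical and 188.4 to 197.6 CPM in thoracic libraries without overlap. Foxd3 was called higher in cervical ones (0.38, edgeR adjusted p = 0.0207, and 0.0219 to 0.145 in fits without 1 library). The part of these cell types in the G2/M values was not tested.

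Within each region, replicate 2 held the highest G2/M sum and the highest progenitor sum. The same replicates held the lowest motor neuron sums, with 504, 255 and 369 CPM in cervical and 493, 327 and 454 CPM in thoracic replicates 1, 2 and 3. The other replicates did not mirror each other in this way. Replicate 3 held the lowest G2/M sum of each region, while replicate 1 held the highest motor neuron sum. Between regions, the mean motor neuron sum was higher in thoracic (424.5 CPM) than in cervical libraries (376.1 CPM), as was the G2/M mean, with overlap for motor neurons. With 3 libraries a region these orders are a description. Of the 7 motor neuron markers, 5 had negative and 2 positive log2 fold changes, and the main edgeR fit called 0. The block called Isl1 (-0.63, blocked adjusted p = 0.00105) and Slc18a3 (-0.59, blocked adjusted p = 0.0303) lower in cervical libraries. DESeq2 called Isl1 in that direction (DESeq2 adjusted p = 0.00282). Of all tested genes, the block called 1.39% and DESeq2 1.29% on that side.

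**Figure D5:**
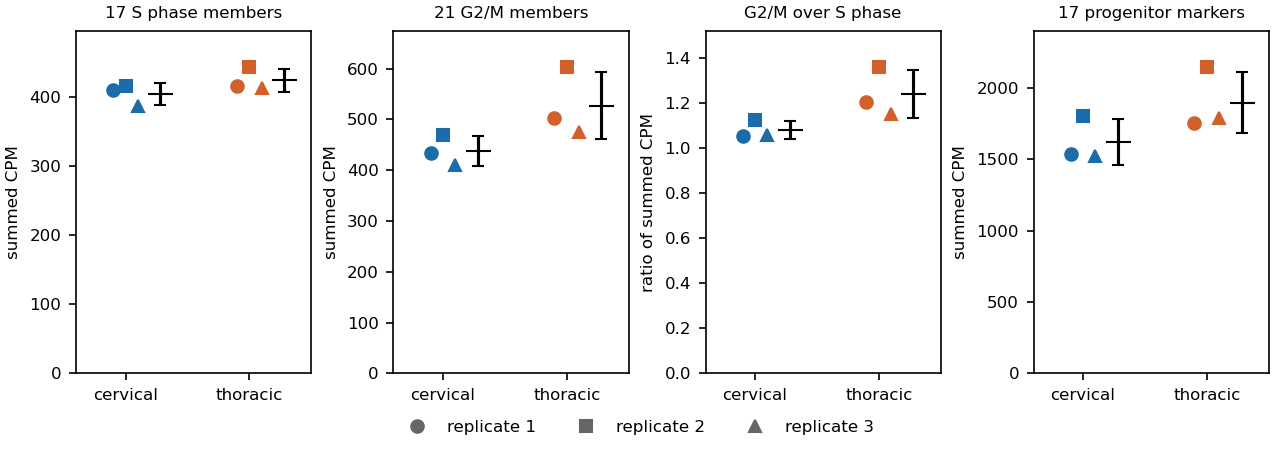
Summed CPM of the 17 S phase members, the 21 G2/M members and the 17 progenitor markers, and the ratio of the G2/M to the S phase sum, in each library (points, one shape per replicate) with mean ± SD (n = 3). The G2/M sums and the ratio do not overlap between cervical and thoracic libraries, while the S phase and progenitor sums do.

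Other genes of the cycle were read from lists that hold no member. None of 36 further replication genes was called by edgeR, limma-voom, DESeq2 or with the block, and their median log2 fold change was 0.004 with 18 below and 18 above 0. At an unadjusted p below 0.05, edgeR had 1 of the 36 on each side, Clspn negative and Orc1 positive. Of all tested genes, 5.19% met that rule on the negative and 3.27% on the positive side. Clspn, a checkpoint mediator at forks, had 9.70, 8.60 and 8.54 CPM in cervical and 11.4, 12.4 and 11.2 CPM in thoracic libraries (-0.38, SE 0.12, edgeR adjusted p = 0.337). Orc1, of the origin recognition complex, had 4.28, 2.82 and 3.79 CPM in cervical and 2.95, 2.52 and 2.13 CPM in thoracic libraries, with overlap (0.51, edgeR adjusted p = 0.574). Pole, a replicative polymerase, had -0.25, and Gins4, the most abundant of the list per length, had -0.08. Without thoracic replicate 2 the number below 0 was 8 of 36, and in the other fits without 1 library it was 17 to 23. The share of all tested genes below 0 was not computed for these fits.

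None of 42 further mitosis genes was called by edgeR, by limma-voom or with the block, although 37 had negative log2 fold changes, with a median of -0.17. At an unadjusted p below 0.05, edgeR had 8 of the 42 negative and 0 positive, beside 5.19% and 3.27% of all tested genes. Of all tested genes, 47.9% had a negative log2 fold change, and DESeq2 called 1.29% higher in thoracic libraries. DESeq2 called Ect2, which directs the cleavage furrow, at 14.8, 15.3 and 13.4 CPM in cervical and 17.8, 21.7 and 18.9 CPM in thoracic libraries (edgeR log2 fold change -0.42, SE 0.11, edgeR adjusted p = 0.195, DESeq2 adjusted p = 0.0367). Smc2, a condensin subunit, and Anln, of the cytokinetic ring, had -0.28 and -0.41 (edgeR adjusted p = 0.282 and 0.381), both without overlap. Without thoracic replicate 2 the list's median was -0.11, and 2 genes had an unadjusted p below 0.05 on the negative side. In the other fits without 1 library that number ran from 3 to 14. Shares of all tested genes were not computed for these fits.

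Upstream regulators held no edgeR or blocked call. Of 7 G1 cyclins and kinases, Ccnd2, a cyclin D of progenitors, had 21.7, 31.6 and 32.5 CPM in cervical and 36.6, 38.2 and 37.0 CPM in thoracic libraries (-0.38, SE 0.13, edgeR adjusted p = 0.393, blocked 0.0771). Ccnd1 lay on the other side at 0.29, Ccnd3 at -0.25, and Cdk4, the most abundant of the list, at 0.12. Of 19 Rb, E2F and MuvB factors, E2f7, a repressor that closes the E2F wave, had 12.3, 13.1 and 11.3 CPM in cervical and 17.1, 15.7 and 17.6 CPM in thoracic libraries without overlap (-0.46, SE 0.11, edgeR adjusted p = 0.137, DESeq2 adjusted p = 0.0159). The median of that list was -0.07, with E2f6, Tfdp2 and E2f4 at -0.16, -0.16 and -0.04. At an unadjusted p below 0.05, edgeR had 1 of 7 G1 genes (Ccnd2) and 2 of 19 Rb, E2F and MuvB genes (E2f7 and E2f6), all negative, and no CDK inhibitor. That rule was met on the negative side by 5.19% of all tested genes. DESeq2, which called E2f7, called 1.29% of all tested genes in that direction.

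CDK inhibitors block the kinases that drive the cycle. Cdkn1c, known as p57, was the most abundant of that list and averaged 263.9 TPM, with 138.8, 123.0 and 142.2 CPM in cervical and 130.0, 144.6 and 114.8 CPM in thoracic libraries (log2 0.05, SE 0.09, edgeR adjusted p = 0.943). Of 7 inhibitors, 5 were tested, and Cdkn2a and Cdkn2b stayed at or below 0.25 CPM in every library. Cdkn2c and Cdkn1a, at means of 1.78 and 5.59 TPM, had log2 fold changes of 0.34 (SE 0.30) and -0.17 (SE 0.23). The list's median was 0.03.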

How the data were processed

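The authors deposited whole-number counts of reads per gene with mm39 coordinates and exonic lengths. Tools named, per the submitters' processing notes, are featureCounts 2.0.1, STAR 2.7.5b and FastQC 0.11.9. Totals ran from 32103071 to 53186131 counts, and no molecular identifiers are mentioned, so PCR copies count as reads.

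Genes were filtered with edgeR 4.0.16 in R 4.3.3 (minimum count 10), which kept 21972 of 56805 genes, and scaled by TMM (factors 0.989 to 1.01). The quasi-likelihood test had region as its only term and a Benjamini-Hochberg threshold of 0.05 over all tested genes. Fold changes use a prior count of 0.125, and dividing their size by the root of the F statistic gave the SE. The common biological coefficient of variation was 15.4%. CPM are TMM-scaled and TPM divide counts by the deposited exonic length. DESeq2 1.42.0, limma-voom 3.58.1, other scalings and filters, and fits without 1 library were alternatives. The edgeR procedure was tested on 4 simulated data sets. There 58 of its 510 calls were false (11.4%), more than the threshold of 0.05 allows for. Its detection rate was 29.5% for 1.5-fold, 54.5% for 2-fold and 87.5% for 4-fold differences. The largest fold of a member, 1.36 for Cenpf (thoracic over cervical), lies below the smallest simulated one. A member without a call therefore cannot be taken as equal between the regions.

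Replicate numbers come from the titles. Deviations from region means correlated at 0.163, 0.160 and 0.195 between same-numbered libraries and at most at 0.008 otherwise. The series' design text calls them biological replicates without saying whether they are separate litters or embryos.

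The members and lists were chosen with earlier results of these data known. Values per library are given for the most extreme and most abundant members, those called with the block and some of each role, and, from other pathway lists, for called genes, the 3 smallest adjusted p and the most abundant gene. Further G2/M sums were added after seeing the data.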

Additional observations from a re-analysis of the deposited data

How the results depend on the processing

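The count of genes called, 119, was 747 with no low-count filter, 409 with DESeq2 and 432 with the replicate block, and 9 to 159 in fits that left out a library (41 without cervical replicate 2, 9 without cervical replicate 3, 37 and 45 without thoracic replicates 2 and 3). The G2/M members called numbered 2, Mki67 and Cenpf, under each of those 3 settings and 0 under the other scalings, the filter at a mean CPM of at least 1, limma-voom and every fit without a library, while S phase members called stayed at 0 throughout. With no low-count filter the adjusted p was 0.00317 for Mki67 and 2.3e-05 for Cenpf. The replicate block changed no other call of a member.

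The log2 ratio of sums, cervical over thoracic, was -0.036 to -0.090 for S phase and -0.16 to -0.34 for G2/M without 1 library. Division by progenitor markers, chosen after seeing the data, turned it to 0.16 for S phase and gave -0.039 for G2/M; the cause was not tested. Summed per length it was -0.12 and -0.28, as the mean of same-number pairs (the replicate block) -0.068 and -0.26, and without Top2a, Mki67 and Cenpf the G2/M ratio was -0.23.

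In fits without 1 library the sign turned for 10 members, whose log2 fold changes ran from -0.0928 to 0.0528 for Mcm4, -0.2111 to 0.0742 for Mcm6, -0.0698 to 0.0381 for Mcm7, -0.0117 to 0.2863 for Pcna, -0.2114 to 0.0029 for Gins2, -0.2552 to 0.0532 for Cdt1, -0.0612 to 0.0557 for Ccne1, -0.1064 to 0.0586 for Aurka, -0.2912 to 0.0427 for Birc5 and -0.2531 to 0.2229 for Hmgb2. The same held for Gins4 (-0.1539 to 0.0143), Ncapd2 (-0.3073 to 0.4183), Cdkn1a (-0.2971 to 0.0584), Cdkn1c (-0.0276 to 0.1388) and E2f4 (-0.1018 to 0.0019).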

Other observations

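Ncapd2, a condensin subunit and the most abundant of the further mitosis genes per length, followed the replicate number and not the region. It stood at 149.3, 97.3 and 51.8 CPM in cervical replicates 1, 2 and 3 and at 122.6, 104.7 and 48.9 CPM in thoracic replicates 1, 2 and 3. It shares 237 exonic bases on the same strand with Scarna10, a small Cajal body RNA gene that averaged 0.8 counts. Smc2, another condensin subunit, had the same order of replicates over a far narrower range, at 35.4, 34.4 and 34.0 CPM in cervical and 44.2, 43.8 and 37.9 CPM in thoracic libraries. Ncapd2 was named for its abundance, and its order over the libraries was noticed after its values were seen.

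Fen1, the flap endonuclease of lagging strands, averaged 28.2 counts, far below the other replication genes with which it works. It shares 1909 exonic bases with Gm10143 on the opposite strand, which averaged 30.3 counts, and 130 with Tmem258. Both Fen1 and Gins2 were singled out after their low counts were seen, and both share long stretches with a gene on the opposite strand.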
